A study of Rattus norvegicus with 18 samples.

Results

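The neurofilament transcripts of rat dorsal root ganglia (DRGs) were Nefl (ENSRNOT00000018599, the light subunit), Nefm (ENSRNOT00000018637, the medium subunit) and Nefh (ENSRNOT00000011604, the heavy subunit). They were chosen by gene name, as 3 of the 41078 transcripts in the count table, and each passed the low-count filter in every comparison. RNA was sequenced from the left L3 and L4 DRGs of 18 Sprague Dawley rats, with 6 rats in each of 3 groups. Naive rats had no procedure, sham rats had anaesthesia with a cut through the skin and fascia over the left knee that was sutured, and TKA rats received anaesthesia and a total knee arthroplasty (replacement of the knee joint) on the left side. DRGs of sham and TKA rats were taken 24 h after surgery. Each group held 3 rats labelled male and 3 labelled female, and each library came from 1 rat, so spread within a group includes differences between animals. The sham joint was not opened, so TKA and sham differ by the whole joint procedure, and the ganglia hold neurons, glia, axons and connective tissue together.

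Neurofilaments are the intermediate filaments of neurons. The light subunit forms the core of the filament, and the medium and heavy subunits carry long tails that project from it and are phosphorylated in the axon. In DRGs they are most abundant in large neurons with myelinated axons, which carry touch and position sense, and they help to set axon calibre. Their transcripts are known to decline in DRG neurons after the peripheral axon is cut.

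Total counts ran from 20230562 to 29343899 per rat, so counting error was small beside the spread between rats for these abundant transcripts. TKA libraries stood apart in 2 ways that touch the results. The summed level of 14 myelinating Schwann cell transcripts was 99009 CPM in TKA rat 2 and 55342 CPM in TKA rat 6, against 7251 to 19144 CPM in the other 16 rats. CPM are counts scaled to a common library size, here after TMM scaling (a correction for RNA composition). The library labelled female TKA rat 4 held 3472 counts on transcripts that marked the male libraries and 0 on the transcript that marked the female ones. The neurofilament differences and the spreads are given with all TKA rats and without rats 2 and 6. So are the gene list counts and medians against sham, for the lists where they are printed. Some values of single genes are given with all TKA rats only.

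The 3 neurofilament transcripts together took a median of 4.24% of all counts in naive rats (3.50 to 4.71%), 4.10% in sham rats (3.39 to 4.39%) and 2.98% in TKA rats (1.57 to 3.85%). All 3 subunits had lower mean levels after TKA than in either control group, by about the same proportion. The sham and naive groups overlapped for each subunit.

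Nefl, the subunit needed to start the filament, had a lowest, median and highest level of 12544, 14771 and 15828 CPM in naive rats, and of 12565, 13639 and 15202 CPM in sham rats. In TKA rats 1 to 6 it was 10182, 5759, 14070, 12916, 11024 and 7495 CPM. Rats 1, 2, 5 and 6 lay below all 6 sham and all 6 naive rats, and rats 3 and 4 lay within the control range. The group means were 14432 ± 1531 CPM in naive, 13831 ± 918 CPM in sham and 10241 ± 3164 CPM in TKA rats (SD, n = 6 each).

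Nefm, whose tail spaces neighbouring filaments, had a lowest, median and highest level of 11336, 14404 and 15984 CPM in naive rats, and of 11085, 13835 and 14749 CPM in sham rats. In TKA rats 1 to 6 it was 9528, 5959, 12583, 12127, 9860 and 7211 CPM. The same 4 TKA rats lay below every control rat, and no TKA rat reached the sham median. The group means were 14146 ± 1806 CPM in naive, 13326 ± 1559 CPM in sham and 9545 ± 2619 CPM in TKA rats (SD, n = 6 each).

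Nefh, the subunit with the longest and most phosphorylated tail, had a lowest, median and highest level of 10775, 13070 and 14562 CPM in naive rats, and of 10412, 12727 and 13631 CPM in sham rats. In TKA rats 1 to 6 it was 8678, 5745, 12332, 11258, 9083 and 6743 CPM. Rats 1, 2, 5 and 6 were again below all control rats, whereas rats 3 and 4 were not. The group means were 12978 ± 1370 CPM in naive, 12410 ± 1288 CPM in sham and 8973 ± 2530 CPM in TKA rats (SD, n = 6 each).

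**Figure D1:**
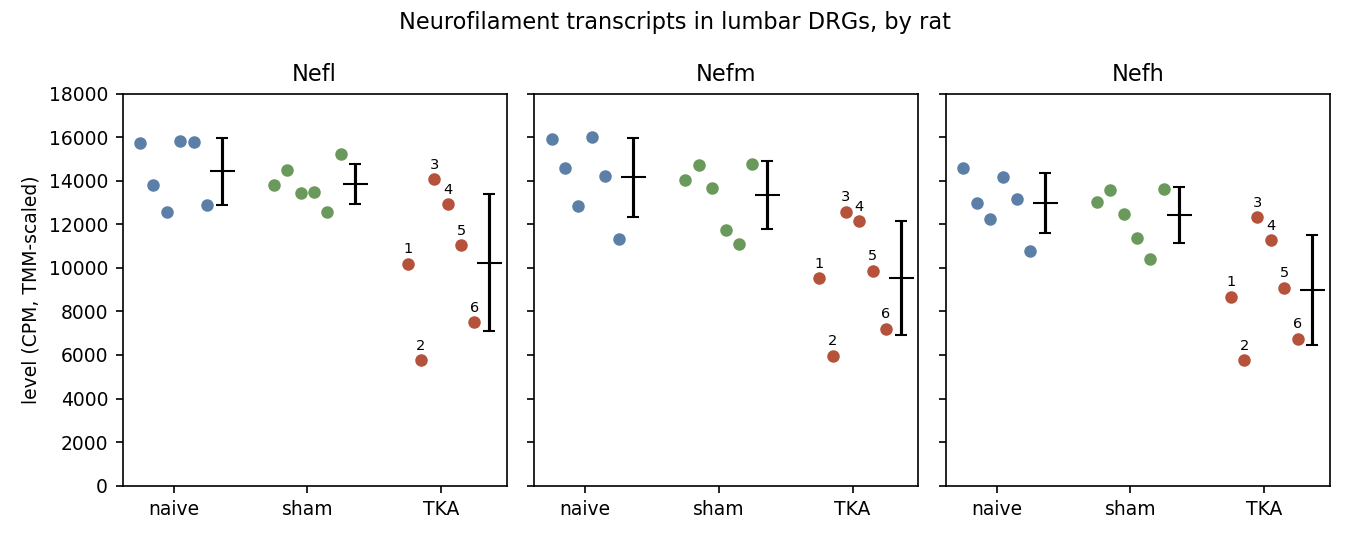
Level of each neurofilament transcript in every rat, in CPM after TMM scaling (vertical axis, from 0), by group (horizontal axis). Points are rats, numbered for TKA, and the cross with bars is the group mean ± SD (n = 6). In each panel TKA rats 1, 2, 5 and 6 lie below all 12 control rats, with rat 2 the lowest at 5759 (Nefl), 5959 (Nefm) and 5745 CPM (Nefh).

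The comparison of TKA with sham rats sets the arthroplasty against anaesthesia and incision alone. Nefl changed on average by -26.1% in the fit, with a log2 fold-change of -0.44 (SE 0.20, 95% interval -0.87 to -0.01) and an adjusted p of 0.560 by edgeR's quasi-likelihood test. Nefm had a log2 fold-change of -0.48 (SE 0.19, 95% interval -0.89 to -0.08, edgeR adjusted p = 0.533). The value for Nefh was -0.47 (SE 0.19, 95% interval -0.87 to -0.07, edgeR adjusted p = 0.534). None passed the threshold of an adjusted p under 0.05 with a fold-change of at least 1.5. No transcript did in that edgeR fit (0 of 15320, 0.0%), while 1355 had an unadjusted p under 0.05, and DESeq2 called 62 and voom 1. The unadjusted edgeR p was 0.0466 for Nefl, 0.0229 for Nefm and 0.0252 for Nefh, in a comparison where 8.84% of all transcripts had an unadjusted p under 0.05 and 2.9% did so with a lower level in TKA. A log2 fold-change at or below that of Nefl, the least changed subunit, was found for 8.09% of transcripts. Taken singly, exact two-sided permutation tests over all splits of 6 against 6 rats gave p = 0.0216 for Nefl, 0.0152 for Nefm and 0.0152 for Nefh (the smallest possible p is 0.00216). In these whole-ganglion samples, fewer cells of a type and less RNA per cell cannot be told apart.

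Against naive rats, where surgery itself also differs, the log2 fold-changes were -0.50 (SE 0.20) for Nefl, -0.57 (SE 0.19) for Nefm and -0.53 (SE 0.18) for Nefh. The edgeR adjusted p-values were 0.238, 0.179 and 0.188, so none of the 3 was among the 13 transcripts called (0.0857% of 15170). The exact permutation p-values were 0.0195, 0.00866 and 0.0108 for Nefl, Nefm and Nefh. Their unadjusted edgeR p-values were 0.0273, 0.00908 and 0.0118, where 17.2% of all transcripts were under 0.05, 5.48% were under 0.05 and lower in TKA, and 7.35% had a log2 fold-change at or below that of Nefl. DESeq2 gave Nefm an adjusted p of 0.0405 with a log2 fold-change of -0.58, short of a 1.5-fold change, so it was not called there either. This comparison and the one with sham share the TKA rats.

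For sham against naive rats every interval spanned 0. The log2 fold-change was -0.06 for Nefl (95% interval -0.20 to 0.08), -0.08 for Nefm (-0.28 to 0.11) and -0.06 for Nefh (-0.23 to 0.10), each with an edgeR adjusted p of 0.998. The exact permutation p-values ran from 0.433 to 0.485. The interval for Nefm, the widest, ran from -17.4 to 7.65%. None of 15153 transcripts was called (0.0%) by edgeR, 625 had an unadjusted p under 0.05 (4.12%, of which 1.64% of all transcripts were lower and 2.49% higher in sham), and DESeq2 called 4. Of all transcripts 33.0% had a log2 fold-change at or below that of the least changed subunit.

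**Figure D2:**
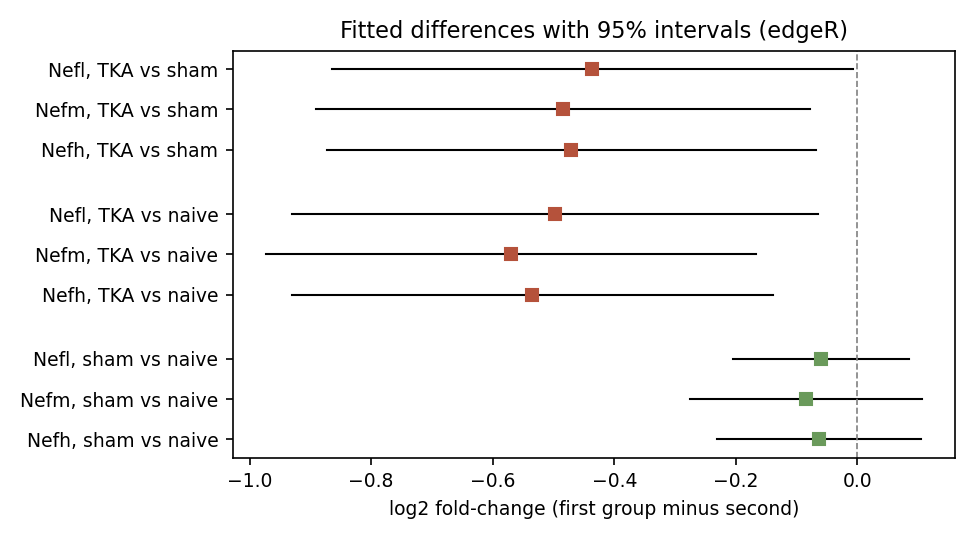
Fitted log2 fold-change of each neurofilament transcript (horizontal axis, first group minus second) in the 3 comparisons, with bars for the 95% interval from edgeR (6 rats a group). The 6 TKA intervals lie below 0 but are wide, with the upper bound for Nefl against sham at -0.01, and the 3 sham intervals are narrow and span 0.

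The size of the TKA difference depended on TKA rats 2 and 6, in which the Schwann cell sums stood apart. Relative to the sham mean, Nefl, Nefm and Nefh were at 41.6, 44.7 and 46.3% in rat 2 and at 54.2, 54.1 and 54.3% in rat 6. Rat 1 had 73.6, 71.5 and 69.9%, and rat 5 had 79.7, 74.0 and 73.2%, in the same order. Rat 3 had 101.7, 94.4 and 99.4%, and rat 4 had 93.4, 91.0 and 90.7%. The TKA rats thus ran from the control level to less than the level of any control rat, and within each rat the 3 subunits lay close together. Without rats 2 and 6, an alternative chosen after the values were seen, the log2 fold-changes against sham were -0.21 for Nefl, -0.29 for Nefm and -0.28 for Nefh. The edgeR adjusted p-values were then 0.713, 0.596 and 0.643. Exact permutation p-values over the 210 splits of 4 against 6 rats were 0.0714, 0.0571 and 0.0667. Against naive rats the values became -0.26, -0.36 and -0.33 for Nefl, Nefm and Nefh. Without rat 2 and the sex-mismatched rat 4, the differences from sham were -0.38 for Nefl, -0.46 for Nefm and -0.44 for Nefh.

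Transcripts of other cells stood high in the libraries with the lowest neurofilament levels. Of 14 named Schwann cell transcripts of a list of 19, 11 had an unadjusted p under 0.05 and a higher level in TKA than sham, where 5.94% of all transcripts did, none passed the adjusted threshold, and the median log2 fold-change was 1.27. Egr2, the transcription factor of myelination, had a log2 fold-change of 1.67, and Ncmap, Fa2h and Mal, all of myelin, had 1.35, 1.51 and 1.51. Without TKA rats 2 and 6 the list had 1 member of 14 with an unadjusted p under 0.05 (Egr2, log2 fold-change 0.90). At that p 3.26% of all transcripts were higher in TKA. The median of the list was -0.01, and Ncmap, Fa2h and Mal were at 0.23, 0.18 and 0.07. The 4 named skeletal muscle transcripts of a list of 13 summed to 8558 CPM in TKA rat 2, 887 CPM in TKA rat 6, and 18.4 to 902 CPM in the other 16 rats. The 3 named satellite glia transcripts of a list of 10 summed to 1727 CPM in TKA rat 2 and 576 CPM in TKA rat 6, and to 274 to 541 CPM in the 12 control rats. Most of that sum was Glul, and the list's median log2 fold-change was -0.34, with 1 of 3 higher. Without TKA rats 2 and 6 the median was -0.39, again with 1 of 3 higher. Fabp7, another satellite glia gene, was at 49.5 CPM in TKA rat 2 and 24.7 CPM in TKA rat 6, against 34.2 to 47.9 CPM in sham rats. The 5 named connective tissue transcripts of a list of 7 summed to 973 to 3093 CPM in TKA rats and to 467 to 927 CPM in control rats. TKA rats 3 and 4, with neurofilament within the control range, were at 1025 and 973 CPM. How often other sums separate the groups in this way was not tested. Of the 5, 4 had an unadjusted p under 0.05 and a higher level in TKA than sham (5.94% of all transcripts). Without TKA rats 2 and 6, 2 did so (3.26% of all transcripts). Names came from shortened supplementary sheets in which transcripts that differed between groups are over-represented, so counts over these lists lean towards moved transcripts. Over all transcripts tested the median log2 fold-change of TKA against sham was 0.01, which is the background for the medians of the lists given here. Whether the DRGs of rats 2 and 6 included more nerve or other tissue was not tested.

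**Figure D3:**
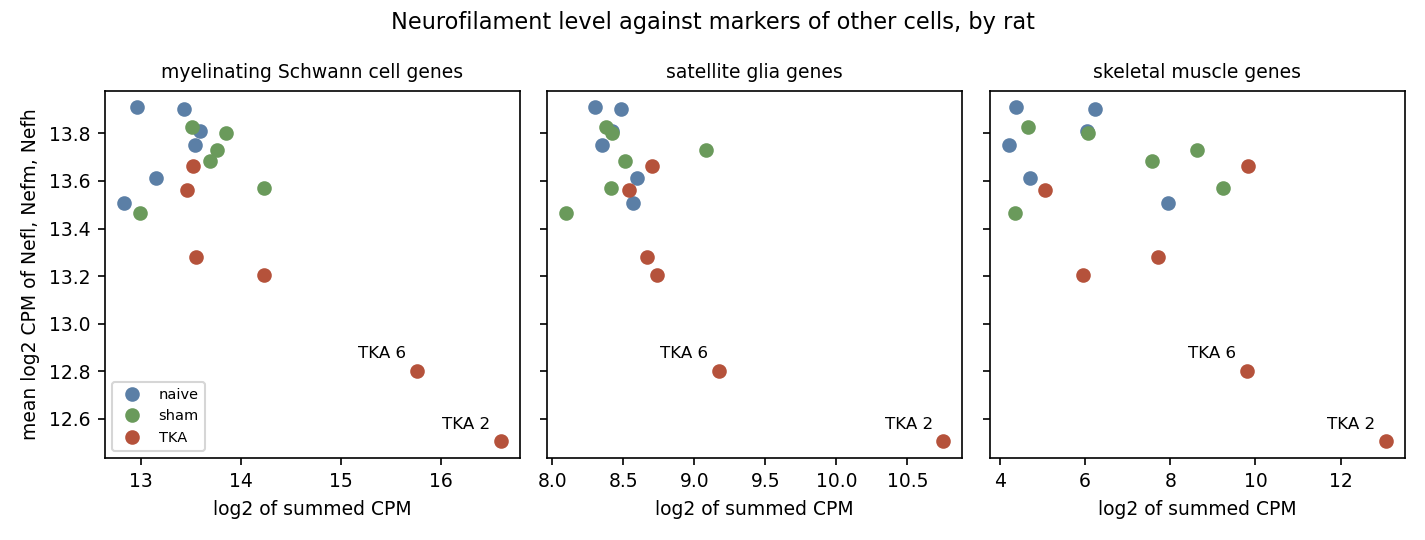
Average of the 3 neurofilament levels on the log2 CPM scale (vertical axis) against the log2 of the summed CPM of named myelinating Schwann cell, satellite glia and skeletal muscle transcripts (horizontal axes). Each point is 1 rat, coloured by group. TKA rats 2 and 6 are lowest in neurofilament level and highest in Schwann cell transcripts, while TKA rats 1 and 5 lie below the control rats at Schwann cell levels no more than 19144 CPM, against up to 19141 CPM in sham rats.

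Other neuronal transcripts did not follow a single proportion in these rats. Calca, which encodes the pain-related peptide CGRP of small neurons, was at 135.4, 13.6, 133.9, 132.6, 127.1 and 88.8% of the sham mean in TKA rats 1 to 6. Calcb, its close paralogue, was at 8.71% in rat 2 and at 98.3 to 146.9% in the others. Atp1b1, a sodium pump subunit of the large neuron list, was at 77.2, 58.8, 94.8, 90.6, 82.8 and 54.9% in TKA rats 1 to 6. Its r with the mean neurofilament level over the 18 rats was 0.94, so it ran close to the neurofilament transcripts. Rat 6 thus had neurofilament levels of 54.1 to 54.3% with Calca at 88.8%, while rat 2 had neurofilament at 41.6 to 46.3% with Calca at 13.6%. In rats 1 and 5, Calca was above the highest sham rat (611 CPM) at 700 and 657 CPM, and the neurofilament transcripts were below the lowest one. Reads shared between Calca and Calcb could be split between them in the count.

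**Figure D4:**
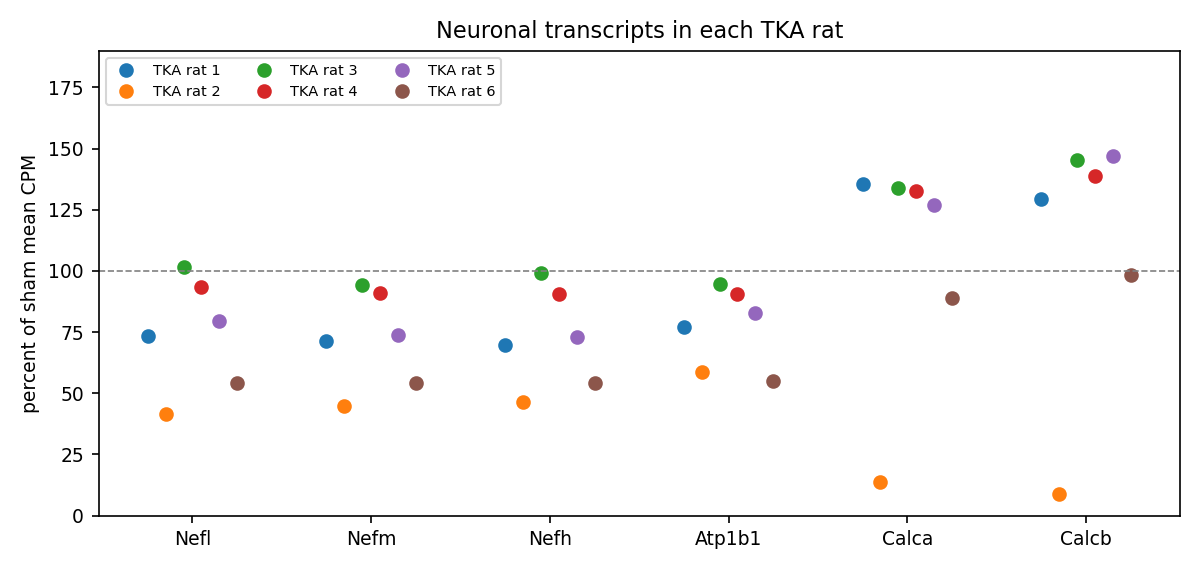
Level in each TKA rat as a percentage of the sham mean (vertical axis, dashed line at 100) for the neurofilament transcripts, for Atp1b1 of large neurons, and for Calca and Calcb of small neurons. Each colour is 1 rat. The 3 neurofilament subunits keep the same order of rats, and TKA rat 2 stands apart for Calca (13.6%) and Calcb (8.71%).

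The proportions of the subunits were compared as ratios of counts within a rat, which do not depend on library scaling. Transcript lengths enter these ratios, so they were read only across rats. The Nefm to Nefl ratio had a geometric mean of 0.978 in naive (0.878 to 1.055), 0.959 in sham (0.869 to 1.017) and 0.942 in TKA rats (0.894 to 1.035). The Nefh to Nefl ratio was 0.899, 0.895 and 0.885, and the Nefh to Nefm ratio 0.920, 0.932 and 0.940, in naive, sham and TKA rats. The groups overlapped in all 3 ratios. None of the 9 comparisons passed exact permutation tests, with p from 0.236 to 0.898 and p adjusted over the 9 from 0.860 to 0.898. For TKA against sham, intervals obtained by inverting the exact test allowed a change of -9.82 to 6.53% in Nefm to Nefl, of -8.24 to 6.94% in Nefh to Nefl and of -2.49 to 4.13% in Nefh to Nefm. TKA rat 2, lowest in level, had the highest Nefh to Nefl ratio of the 18 rats (0.998).

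Subunit proportions differed between the labelled sexes in rats without TKA, a comparison made after the values were seen. The Nefm to Nefl ratio was 1.012, 1.055 and 1.023 in the 3 male naive rats and 1.010, 0.902 and 0.878 in the 3 female ones. In sham rats it was 1.017, 1.015 and 1.016 in males and 0.869, 0.882 and 0.970 in females. All 6 males lay above all 6 females, though naive rats 1 and 4 were nearly level. On average the ratio changed by -10.3% from males to females, and the exact permutation test within groups gave p = 0.005, the smallest of its 400 arrangements, or 0.0075 adjusted over the 3 ratios.

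The Nefh to Nefl ratio showed the same order, with 0.926, 0.939 and 0.974 in male and 0.895, 0.835 and 0.835 in female naive rats. It was 0.944, 0.936 and 0.927 in male and 0.843, 0.829 and 0.897 in female sham rats. The average difference, female minus male, was -9.11% (exact permutation p = 0.005, adjusted p = 0.0075). The Nefh to Nefm ratio overlapped between the sexes with a difference of 1.37% (exact permutation p = 0.400, adjusted p = 0.400). Both ratios that differed share Nefl, and Nefm and Nefh varied together in these 12 rats (Pearson's r 0.99). They are therefore not independent results. With each of the 12 rats left out in turn, the highest adjusted p for Nefm to Nefl was 0.0375 and that for Nefh to Nefl 0.0300. Among the ratios of pairs of the 88 transcripts of at least 1000 CPM, 3.71% did not overlap between the sexes in these 12 rats.

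Single levels overlapped between the sexes for each subunit, where 1.63% of the 16048 transcripts kept did not. Nefl ran from 12544 to 15729 CPM in the 6 male and from 12565 to 15828 CPM in the 6 female control rats. Nefm averaged 14287 CPM in males and 13185 CPM in females, with a log2 difference, female minus male, of -0.12 (SE 0.08, edgeR adjusted p = 0.570). The same difference was -0.11 for Nefh (SE 0.07, edgeR adjusted p = 0.577) and 0.03 for Nefl (SE 0.07, edgeR adjusted p = 0.908). Males carried rat numbers 1 to 3 and females 4 to 6 in every group, so sex and any processing order tied to the number cannot be told apart.

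In TKA rats the order by sex was not seen. The Nefm to Nefl ratio was 0.936, 1.035 and 0.894 in the 3 rats labelled male, 0.939 in rat 4, and 0.894 and 0.962 in female rats 5 and 6. Nefh to Nefl was 0.852, 0.998 and 0.876 in males, 0.872 in rat 4, and 0.824 and 0.90 in rats 5 and 6. Whether TKA changed the sex difference in the ratios was not tested. For single levels, the sex-by-group terms of edgeR in TKA against sham were 0.08 for Nefl (SE 0.43), 0.23 for Nefm (SE 0.40) and 0.15 for Nefh (SE 0.40), each with an adjusted p of 0.9996, and they changed sign when rat 4 was entered as male.

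**Figure D5:**
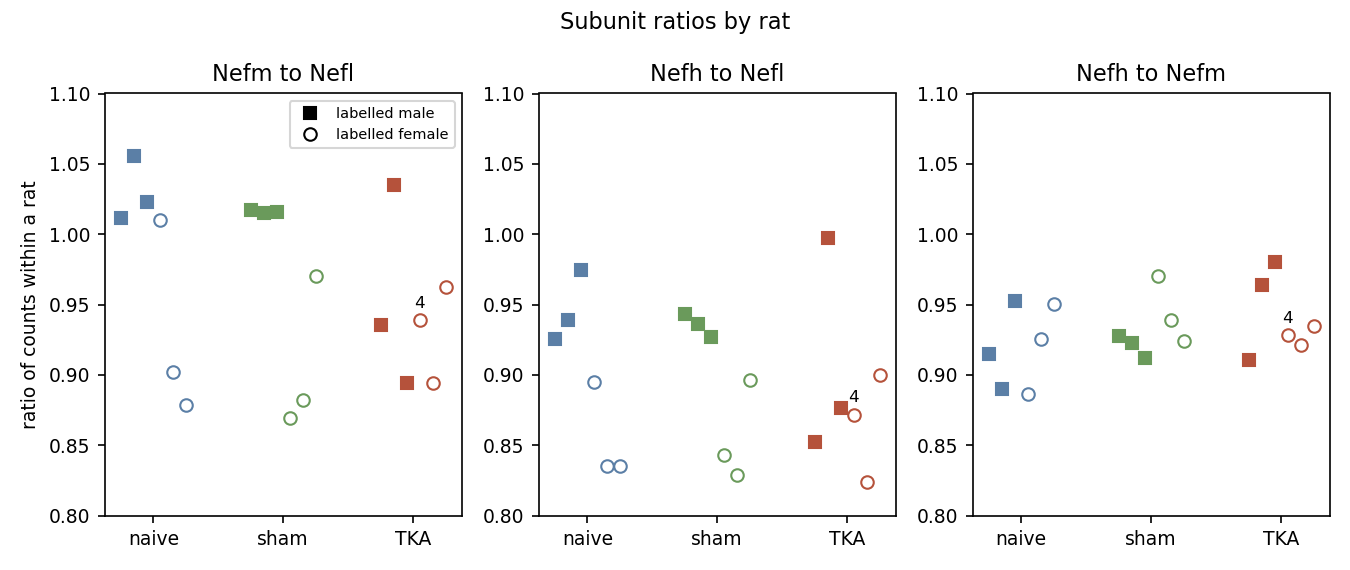
Ratio of counts between neurofilament subunits within each rat (vertical axis, which does not start at 0), by group. Filled squares are rats labelled male and open circles rats labelled female, and the point marked 4 is the library labelled female TKA rat 4. In naive and sham rats every male lies above every female for Nefm to Nefl and for Nefh to Nefl, but not for Nefh to Nefm.

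The 3 transcripts also varied together between rats of the control groups. Over the 12 naive and sham rats, Pearson's r of log2 CPM was 0.99 for Nefm and Nefh (Spearman's rho 0.97), with a permutation p of 1e-05, the smallest that 100000 resamples can give, and 3e-05 after adjustment over 3 pairs. It was 0.83 for Nefl and Nefm (rho 0.87, permutation p = 0.0010, adjusted p = 0.0010) and 0.84 for Nefl and Nefh (rho 0.88, permutation p = 0.00059, adjusted p = 0.00088). Leaving out the 2 rats farthest from the median gave 0.98, 0.84 and 0.86 for these pairs. Nefl and Nefm are neighbouring genes in the rat assembly GRCr8, and the highest r was between Nefm and Nefh. Whether gene position bears on these correlations was not tested. The levels share library and scaling.

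The spread between TKA rats exceeded that in the controls. The SD of log2 CPM was 0.16, 0.10 and 0.49 for Nefl in naive, sham and TKA rats, 0.19, 0.17 and 0.42 for Nefm, and 0.16, 0.15 and 0.42 for Nefh. The ratio of the TKA SD to the sham SD was 5.13 for Nefl, 2.41 for Nefm and 2.73 for Nefh. Its median was 1.30 over the 16048 transcripts kept across all rats and 2.96 over the 88 of at least 1000 CPM. Against naive rats the ratio was 3.16 for Nefl, 2.21 for Nefm and 2.69 for Nefh, all under the median of 3.97 of the abundant transcripts. Without TKA rats 2 and 6 the TKA SD was 0.21 for Nefl, 0.20 for Nefm and 0.24 for Nefh. Its ratio to the sham SD was then 2.22, 1.17 and 1.57, against a median of 0.64 over the abundant transcripts. The difference in spread was not tested.

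The named transcripts whose levels were most like the mean of the 3 neurofilament transcripts over the 18 rats were Tmem229b (r = 0.97), Nkiras1 (0.96), Sptbn4 (0.96), Ube2o (0.96) and Scrt1 (0.95). They ranked 1 to 5 of 16045, and over the 12 control rats their r was 0.80, 0.86, 0.77, 0.75 and 0.76. Sptbn4 encodes the spectrin of axon initial segments and nodes, and Scrt1 a neuronal transcription factor. The most opposite named transcripts were Eef1a1 (r = -0.94), Tpm4 (-0.92), Rras2 (-0.92), Csrp1 (-0.92) and Sgcb (-0.92), with -0.44, -0.60, -0.74, -0.13 and -0.54 over the control rats. In all 67 transcripts had an r over 0.9, of which 54 were named. Without TKA rat 2 the r of the 5 most alike ran from 0.91 to 0.96. These correlations are descriptions across rats whose levels share a library and its scaling. Reads of Eef1a1 and of tubulin genes may be shared with near-identical copies.

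The other intermediate filament genes are filaments of glia, muscle and other cells. Of 5 named members of a list of 13, 3 had an unadjusted p under 0.05 and a higher level in TKA than sham (5.94% of all transcripts), none had one with a lower level (2.9% of all transcripts), none passed the adjusted threshold, and the median log2 fold-change was 0.74. Gfap, the filament of reactive glia, averaged 44.2 ± 44.4 CPM in sham and 249.8 ± 376.6 CPM in TKA rats (SD, n = 6), and TKA rat 2 alone had 1015 CPM. Vim, the filament of glia and fibroblasts, was at 1679 ± 221 CPM in sham and 2270 ± 454 CPM in TKA rats (log2 fold-change 0.44, SE 0.15, edgeR adjusted p = 0.533). Des, the muscle filament, was at 477 CPM in TKA rat 2 and averaged 23.9 CPM in sham rats. Nes had a log2 fold-change of 0.74 (SE 0.41, edgeR adjusted p = 0.617). Without TKA rats 2 and 6, Vim alone of the 5 had an unadjusted p under 0.05 (log2 fold-change 0.25). At that p 3.26% of all transcripts were higher in TKA. The median of the list was 0.25, and Gfap, Des and Nes were at 0.92, 0.36 and -0.14.

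Genes of neurofilament binding, transport, phosphorylation and turnover were thinly named, with 3 of 24. None had an unadjusted p under 0.05 against sham, and their median log2 fold-change was -0.17. Kif5a, the motor that carries neurofilaments down the axon, had a log2 fold-change of -0.47 (SE 0.22, edgeR adjusted p = 0.565), from 72.5 ± 14.9 CPM in sham to 52.5 ± 15.5 CPM in TKA rats. Stub1, a ubiquitin ligase, had -0.17 and Mapk3, a kinase, -0.04.

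Among axonal microtubule, actin and spectrin genes, 10 of 35 were named. Against sham, 3 had an unadjusted p under 0.05 with a higher level and 2 with a lower one (5.94% and 2.9% of all transcripts), none passed the adjusted threshold, and the median log2 fold-change was -0.26. Tubb6, a tubulin known to be induced in injured neurons, was at 23.8 ± 5.4 CPM in sham and 42.4 ± 8.1 CPM in TKA rats (SD, n = 6). Its log2 fold-change was 0.83 against sham (edgeR adjusted p = 0.234), and it rose by 1.08 against naive rats (edgeR adjusted p = 0.00672). Map4 was at 1.35 and Tuba1c at 1.64 against sham on the log2 scale, but at 0.33 and 0.18 without TKA rats 2 and 6, and they were at 33.7 and 69.7 CPM in TKA rat 2. Tubb6 was at 0.81 without these rats. Sptbn4 was at -0.34, from 187.7 ± 16.6 CPM in sham to 148.1 ± 30.4 CPM in TKA rats, and at -0.19 without TKA rats 2 and 6. In that fit, 1 of the 10 had an unadjusted p under 0.05 with a higher level and 2 with a lower one. The shares of all transcripts were 3.26% and 3.33%, and the median of the list was -0.055.

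Markers of large myelinated sensory neurons, the cells richest in neurofilament in the DRG, had 14 named and 13 tested members of 32. In TKA against sham, 6 had an unadjusted p under 0.05 with a lower level and 1 with a higher level (2.9% and 5.94% of all transcripts), none passed the adjusted threshold, and the median log2 fold-change was -0.45. Asic2, an acid-sensing channel, was at 22.0 ± 4.4 CPM in sham and 11.4 ± 4.4 CPM in TKA rats (log2 fold-change -0.94, SE 0.25, edgeR adjusted p = 0.440). Atp1b1 had -0.39 (SE 0.14) and Scn1a, a sodium channel, -0.59 (SE 0.21). Lpl, which other cells also express, had 2.54 (SE 0.73), with 289 CPM in TKA rat 2. Without TKA rats 2 and 6, 9 of the 13 had an unadjusted p under 0.05 and a lower level and none a higher one, where 3.33% of all transcripts were so and lower, and the median was -0.30. Asic2 was then at -0.68, Scn1a at -0.49, Atp1b1 at -0.22 and Lpl at 0.58, and none passed the adjusted threshold.

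The 3 named genes of small unmyelinated neurons, of 20, had log2 fold-changes of 0.07 for Calca, 0.15 for Calcb and 0.02 for Mrgprx3 against sham. Without TKA rats 2 and 6 they were at 0.39, 0.47 and 0.27, and Calca and Calcb had unadjusted p-values under 0.05 (3.26% of all transcripts did so and were higher), with edgeR adjusted p-values of 0.318 and 0.365. A list of 19 pan-neuronal genes had 4 named members. Of these, 2 had an unadjusted p under 0.05 with a lower level in TKA (2.9% of all transcripts), and the median was -0.55. Without TKA rats 2 and 6, 2 did so (3.33% of all transcripts), and the median was -0.33. Sncb, a presynaptic protein, went from 282.2 ± 28.8 CPM in sham to 207.8 ± 51.0 CPM in TKA rats. Its log2 fold-change was -0.44, and -0.26 without TKA rats 2 and 6. Eno2 had -1.37 with a wide spread in sham rats (30.9 ± 27.7 CPM). Isl1, a sensory neuron transcription factor, was at 7.44% of the sham mean in TKA rat 2 and at 64.1 to 97.3% in the other TKA rats.

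Of 18 axon injury and growth genes, 9 were named and 7 tested. Against sham 4 had an unadjusted p under 0.05, all higher in TKA (5.94% of all transcripts), and the median log2 fold-change was 0.90. Vgf, a neuropeptide precursor, averaged 52.1 ± 15.3 CPM in sham and 104.5 ± 42.1 CPM in TKA rats (log2 fold-change 1.002, SE 0.29, edgeR adjusted p = 0.505). Csf1, a signal from injured neurons to microglia, had 0.71 (SE 0.21), Flrt3 1.20 (SE 0.42) and Gadd45a 0.90 (SE 0.34). The summed level of the list was lowest in TKA rat 2 at 252 CPM and 455 to 1010 CPM in the other TKA rats, so the library lowest in neurofilament was also the lowest of its group in these genes. Without TKA rats 2 and 6, 6 of 7 had an unadjusted p under 0.05 and a higher level (3.26% of all transcripts), and the median was 1.18. In sham against naive rats, 4 of the 7 had an unadjusted p under 0.05 and a higher level in sham (2.49% of all transcripts). The median there was 0.42, and none was called. In TKA against naive rats Vgf was called (log2 fold-change 1.80, edgeR adjusted p = 0.0185).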

How the data were processed

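The deposited table held raw counts per Ensembl transcript. The authors made these counts from paired-end 150 bp reads aligned to rn6 with HISAT2 and counted with featureCounts, and compared groups with DESeq2. Columns of their comparisons were not used. Transcripts kept by filterByExpr were compared between pairs of groups with edgeR 4.0.16 (TMM, quasi-likelihood test, Benjamini-Hochberg adjustment over all transcripts tested). Levels are CPM with TMM factors over 18 rats, and log2 CPM used a prior count of 2. Single values were tested by exact permutation. Depth was 20230562 to 29343899 counts per rat. DESeq2 1.42.0, limma 3.58.1 (voom), other scalings and filters, covariates and left-out rats were alternatives. On simulated data of 15320 transcripts for TKA against sham, 44 of 100 changes of 1 and 100 of 100 changes of 2 on the log2 scale were recovered. The simulation gave every transcript the same median dispersion and set no TKA rat apart. Its rates therefore do not measure recovery at the spread of the real TKA rats. Symbols came from shortened supplementary sheets, which named 3837 transcripts. Named were the 3 subunits, the 5 named transcripts most and least like them, and up to 4 per list with the lowest p against sham. Results on some items are not reported here. The members and lists were chosen with earlier results of these data known. Libraries differed beyond sampling noise in every pair. Strand setting of the counts and rn6 positions were not given in the sources used here, and a gene model overlaps the end of Nefm in GRCr8.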

Additional observations from a re-analysis of the deposited data

Results flagged for a closer look

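The summed level of the 3 named satellite glia transcripts stood far from the rest of its group in TKA rat 2, at 10.75 on the log2 CPM scale against 9.17 in the next TKA rat, which is rat 6. The gap took 71.5% of the range of the 6 TKA rats. Glul, the glutamine synthetase of satellite glia, made up most of it, with 1675 CPM in TKA rat 2. Neurofilament levels were lowest in the same rat. Of 27 groups of values examined in this way 1 stood apart, and chance alone gives about 1.35. No neurofilament level or subunit ratio was among them.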

How the results depend on the processing

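Every TKA difference of Nefl, Nefm and Nefh kept its negative sign under all 12 other settings and with each rat left out, and none had an adjusted p under 0.05 against sham. Nefm against naive had an adjusted p under 0.05 in 3 of 12, each short of a 1.5-fold change, with log2 fold-changes of -0.58 (DESeq2 adjusted p = 0.0405), -0.53 (DESeq2 with a prior, adjusted p = 0.0422) and -0.49 (voom, adjusted p = 0.0461). Counts of transcripts called depended on the tool. TKA against sham gave 62 (DESeq2), 56 (DESeq2 with a prior), 1 (voom) and 11 (all 3 groups in 1 fit) in place of 0. TKA against naive gave 429, 343, 123 and 116 in the same order in place of 13, 79 without TKA rats 2 and 4, and 105 without rats 2 and 6. Sham against naive gave 4 with DESeq2. The cause was not tested. Leaving out 1 rat gave 3 to 113 for TKA against naive (the lowest count without TKA rat 1 or without either of naive rats 5 and 6, the highest without TKA rat 2, and 36 without TKA rat 5).

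Same-numbered rats deviated together only weakly (correlations -0.05 to 0.22), so the numbers were not taken as pairs. The mean correlation was 0.029 for TKA and sham, 0.029 for TKA and naive, and 0.059 for sham and naive. For rats of unlike number it was -0.0058, -0.0058 and -0.011, in the same order. With rat number as a block, 1 transcript was called in TKA against naive, and Nefl, Nefm and Nefh against sham were at -0.49, -0.52 and -0.51.

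With TKA rat 4 entered as male, the sex-by-group terms changed sign against sham for Nefl (-0.20), Nefm (-0.064) and Nefh (-0.13), and against naive for Nefm (-0.19) and Nefh (-0.21). Without TKA rat 2 or rat 4 they ran against sham from -0.20 to -0.10 for Nefl, -0.011 to 0.037 for Nefm and -0.080 to -0.037 for Nefh, and against naive from -0.30 to -0.20, -0.13 to -0.077 and -0.16 to -0.12. Ratio differences were near 0 and some changed sign with 1 rat left out. On the log2 scale Nefh to Nefl ran from -0.050 to 0.0055 (TKA against sham), -0.057 to 0.00076 (TKA against naive) and -0.029 to 0.016 (sham against naive), Nefm to Nefl from -0.058 to 0.0012 (sham against naive) and Nefh to Nefm from -0.0012 to 0.022 (TKA against sham). All 6 TKA differences in level were under the 1.5-fold change required for a call, and smaller than the changes simulated to test recovery.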
